A study of Homo sapiens with 6 samples.

Results

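The genes described here are those of the enzymes, readers and remodelling ATPases that write, remove, bind or move the marks and nucleosomes of chromatin. They were taken from the gene symbols of the deposited table by name alone: the KDM demethylases other than KDM3A, the KMT and SETD methyltransferases, the HDAC and SIRT deacetylases, the SMARC, ARID and CHD remodellers, the CBX readers, the DNMT methyltransferases, the TET dioxygenases, and EZH1, EZH2, SUZ12 and EED of Polycomb repressive complex PRC2. The rule found 101 members among 74852 loci, and 99 of them reached the mean of 10 normalized reads needed for testing, as did 18849 loci in all. DNMT3L and SMARCA5-AS1, an antisense gene that matched by the start of its symbol, were below it. For 9 members the locus joined the gene with a neighbour or a microRNA: KDM2B, KDM5C, HDAC10, SMARCE1, ARID4B, CHD2, CBX5, EED and EZH1.

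RNA was sequenced from MDA-MB-231, an established line of triple-negative breast cancer cells, transfected 2 times with siRNA. The 3 libraries named si-SAM68 received 4 pooled siRNAs that target SAM68, and the 3 named si-CTRL a control pool. SAM68 is the RNA-binding splicing regulator encoded by KHDRBS1, and the comparison asks what its loss does to the transcriptome of these cells. Both groups were the same cell line and carried siRNA, and a transient knockdown leaves some of the transcript. By the sample labels cells were taken 24 h after the second transfection. The published methods state another time after transfection without saying which transfection is meant, so the statements need not conflict. The replicate libraries are not said to come from separate cultures, so that p-values measure the spread between these samples, which may be technical.

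Chromatin genes work in families. SWI/SNF complexes, built around the ATPases SMARCA4 or SMARCA2 with ARID subunits, open nucleosomes. PRC2 (EZH2 or EZH1 with EED and SUZ12) methylates histone H3, and the CBX proteins of the Polycomb type read that mark. DNMT1 copies DNA methylation after replication, DNMT3A and DNMT3B add it anew, and the TET dioxygenases oxidise it, a step towards its removal. In breast cancer these families are known as frequent sites of mutation and as drug targets.

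Because all si-SAM68 libraries carry the same siRNAs, their sequences are given first, as the sense strands in the study's supplementary list. Capitals mark the 7 bases that pair with guide positions 2 to 8, the seed that a siRNA shares with microRNA-like targets.
siSAM68_1: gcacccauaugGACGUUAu
siSAM68_2: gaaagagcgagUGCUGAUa
siSAM68_3: uaugauggaugAUAUCUGu
siSAM68_4: aaagaucucugUAUUGGGa

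KHDRBS1 had 15660, 14483 and 14737 normalized reads in the si-CTRL libraries and 583.3, 601.6 and 670.2 in the si-SAM68 libraries, so that 4.13% was left (log2 fold change -4.60, SE 0.0829, adjusted p = 2.13e-09, limma). Libraries held 52625492 to 82568487 reads. Markers of the line were high in every library (VIM, CD44, AXL, CAV1 and FN1 from 43113 to 208215 normalized reads), and ESR1, PGR, CDH1 and EPCAM were at 15.2 or less, but GATA3, expected near 0, lay between 330.8 and 542.4. Of 5 stroma or blood markers, PTPRC, PECAM1 and CD3E were at 16.2 or less, while CD68 (107000.2 to 117455) and COL1A1 (138281 to 181387) were high in both groups. The library si-SAM68 replicate 2 stood apart: 15.1% of its reads lay on the ribosomal RNA locus, against at most 3.17% elsewhere, and 61 histone loci had a median deviation of 1.72 on the log2 scale from the mean of the libraries. The members were 0.623% of its normalized reads, against 0.676% to 0.716% in the others. In si-CTRL replicate 1 a few members were off, such as CBX3 (20192 against 29256 and 28712 in its group) and EED (1529 against 2289 and 2455). In whole cultures, fewer cells of a kind and less RNA per cell cannot be told apart.

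Of the 99 tested members, 8 changed between si-SAM68 and si-CTRL at an adjusted p-value under 0.05: TET1, DNMT3B and CBX6 rose, and TET3, ARID3A, KDM4D and HDAC9 are described among those that fell. These 8 members are 8.08%, and 10.7% of all tested loci passed the same test. By direction, 3 members (3.03%) were higher, against 4.47% of all loci, and 5 (5.05%) lower, against 6.23% of all loci. The published methods set their thresholds at 1.5 for the fold change and 0.05 for the p-value. With the unadjusted p-value taken here, 4 members (4.04%) were regulated, against 7.67% of all loci: TET1 among the 2.83% of loci called higher and TET3, ARID3A and KDM4D among the 4.83% called lower. The 3 si-SAM68 values lay wholly above or wholly below the 3 si-CTRL values for 27 members (27.3%), against 33.9% of all loci. Every one of these shares of members was below that of all loci.

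Most of these genes stayed near their control level. The median of the absolute log2 fold change was 0.13 over the 99 members and 0.19 over all tested loci, and 50 members were within 10% of their control mean. Members were also more abundant, with a median level of 2142 normalized reads against 610.1 for all tested loci. Among the 6520 loci with a level between 707.3 and 5716, the range of the middle part of the members, 13.5% passed the adjusted test and the median absolute log2 fold change was 0.15, while 4 of the 49 members in that range passed. This range was set after the values were seen. The signed median was 0.05 for members and 0.01 for all loci. In si-SAM68, 60 members (60.6%) were higher and 39 lower, against 50.9% of all loci higher. The shift in the median was of the size of the spread of the members' median between single replicate libraries (0.043), and was not tested.

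**Figure D1:**
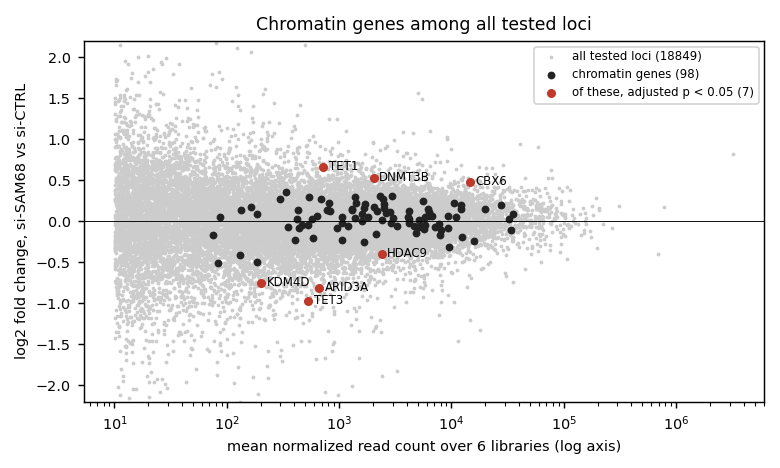
Log2 fold change (si-SAM68 vs si-CTRL, vertical axis) against the mean normalized read count over the 6 libraries (horizontal log axis) for all 18849 tested loci (grey), 98 of the 99 tested chromatin genes (black) and 7 of these with an adjusted p under 0.05 (red); 29 loci lie outside the vertical axis. The chromatin genes form a narrow band around 0 at middle to high levels, with TET1, DNMT3B and CBX6 above it and TET3, ARID3A and KDM4D the farthest below.

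**Figure D2:**
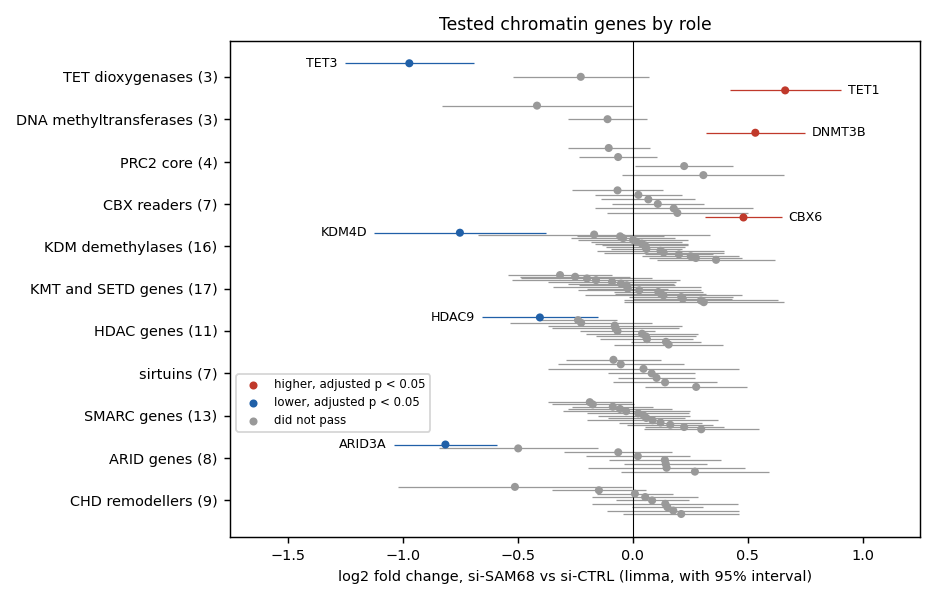
Log2 fold change with its 95% interval for 98 of the 99 tested members, one row per role with the number of genes drawn in parentheses; red marks genes higher and blue genes lower at an adjusted p under 0.05. The TET, DNMT and CBX rows hold all 3 genes that rose, and 5 of the 11 roles (PRC2, KMT and SETD, sirtuins, SMARC, CHD) hold no called gene.

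The TET family moved in opposite directions. TET3 had 739.9, 752.6 and 610.3 normalized reads in si-CTRL and 332.4, 403.8 and 334.0 in si-SAM68. All si-SAM68 values lay well under the lowest control. Its level fell 1.96-fold (log2 fold change -0.97, SE 0.126, adjusted p = 0.00189). TET1 had 496.2, 623.7 and 560.9 normalized reads in si-CTRL and 841.2, 893.2 and 917.1 in si-SAM68. Again the groups did not overlap, now with si-SAM68 on the high side. TET1 rose 1.58-fold (log2 fold change 0.66, SE 0.108, adjusted p = 0.00592). TET2, the member most often mutated in blood cancers, had 1148 ± 169 in si-CTRL and 979.9 ± 134.6 in si-SAM68 (SD, n = 3 each), with overlapping groups (log2 fold change -0.23, 95% interval -0.52 to 0.069, adjusted p = 0.303).

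Divided by exon length, the level of TET1 was 60.3 ± 6.87 normalized reads per kb in si-CTRL and 95.2 ± 4.18 in si-SAM68, that of TET2 73.0 ± 10.8 and 62.3 ± 8.56, and that of TET3 61.1 ± 6.86 and 31.1 ± 3.55 (SD, n = 3 each). In si-CTRL TET2 was the highest of the 3 genes in every library, and TET1 and TET3 differed by less than their spread. In si-SAM68 TET1 was the highest and TET3 the lowest in every library. Their sum was 194.4 ± 14.4 per kb in si-CTRL and 188.6 ± 14.4 in si-SAM68, a difference below the spread between libraries. The log2 ratio of TET1 to TET3 within a library went from -0.58, -0.27 and -0.12 in si-CTRL to 1.34, 1.14 and 1.45 in si-SAM68. The sum and this ratio were chosen after the values were seen and were not tested.

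DNMT3B, which adds methyl groups to unmethylated DNA, had 1760, 1728 and 1490 normalized reads in si-CTRL and 2573, 2406 and 2215 in si-SAM68. No control library reached the lowest si-SAM68 library. It rose 1.45-fold (log2 fold change 0.53, SE 0.0964, adjusted p = 0.00914). Its relative DNMT3A was scarce and lower in the mean, at 149.2 ± 25.8 against 111.5 ± 19.3 (SD, n = 3 each), but the groups overlapped (log2 fold change -0.42, 95% interval -0.83 to -0.0021, adjusted p = 0.183). DNMT1 was at 35098 ± 2691 and 32454 ± 110 (log2 fold change -0.11, 95% interval -0.28 to 0.062, adjusted p = 0.391). On the scale of exon length the control levels were 6433 normalized reads per kb for DNMT1, 358.3 for DNMT3B and 13.9 for DNMT3A, and each gene kept its place in si-SAM68 (5948, 517.9 and 10.4 per kb). DNMT3L, the cofactor without catalytic activity, was under the filter.

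**Figure D3:**
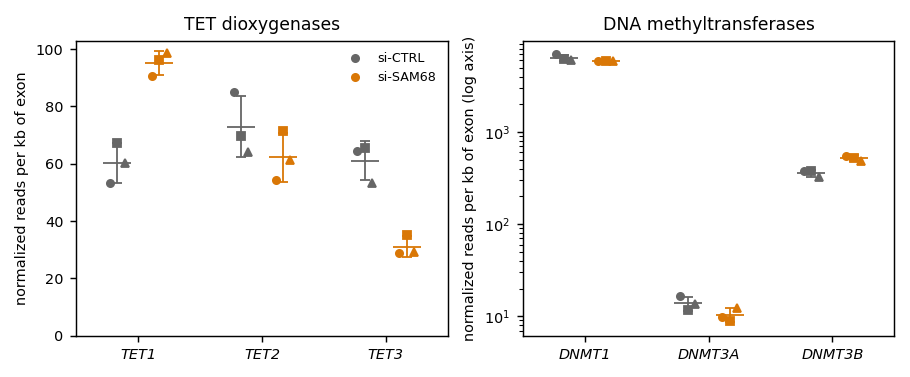
Normalized reads per kb of exon in each library (points, one shape per replicate number; bars are the mean ± SD, n = 3) for the TET dioxygenases (left, linear axis) and the DNA methyltransferases (right, log axis), with si-CTRL in grey and si-SAM68 in orange. TET1 went from 60.3 to 95.2 and TET3 from 61.1 to 31.1 per kb, while DNMT1 stayed far above DNMT3B and DNMT3A in both groups.

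Since these 3 genes belong to 1 pathway and moved in different directions, an annotated start of each is shown, as RefSeq gives it on GRCh38.p14. The windows run from 250 bases before to 50 bases after that start. They lie at chr2:73984660-73984959 for TET3, chr10:68560087-68560386 for TET1 and chr20:32779602-32779901 for DNMT3B, all on the plus strand. Capitals mark matches on either strand to 4 motifs. The E-box, a site of MYC-type factors, was searched as CACGTG. The GC box, a site of SP1-type factors, was searched as GGGCGG. The CCAAT box was searched by the letters of its name, and the TATA box as TATAAA. TET1 has 3 annotated starts and TET3 has 2, of which the one farthest upstream is shown. DNMT3B has 1 in the list used, which may lie inside the gene. The windows were not compared with the ends of the deposited loci, which are on hg19.
TET3: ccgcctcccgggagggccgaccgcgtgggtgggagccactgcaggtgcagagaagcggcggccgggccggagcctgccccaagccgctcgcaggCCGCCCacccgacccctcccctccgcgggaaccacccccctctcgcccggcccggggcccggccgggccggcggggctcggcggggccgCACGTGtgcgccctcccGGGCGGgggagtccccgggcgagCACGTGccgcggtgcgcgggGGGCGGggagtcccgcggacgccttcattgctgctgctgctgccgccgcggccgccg
TET1: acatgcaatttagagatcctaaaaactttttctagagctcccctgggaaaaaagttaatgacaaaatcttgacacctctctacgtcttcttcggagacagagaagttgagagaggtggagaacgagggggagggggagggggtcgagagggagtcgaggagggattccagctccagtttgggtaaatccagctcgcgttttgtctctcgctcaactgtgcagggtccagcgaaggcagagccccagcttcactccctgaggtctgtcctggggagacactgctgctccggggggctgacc
DNMT3B: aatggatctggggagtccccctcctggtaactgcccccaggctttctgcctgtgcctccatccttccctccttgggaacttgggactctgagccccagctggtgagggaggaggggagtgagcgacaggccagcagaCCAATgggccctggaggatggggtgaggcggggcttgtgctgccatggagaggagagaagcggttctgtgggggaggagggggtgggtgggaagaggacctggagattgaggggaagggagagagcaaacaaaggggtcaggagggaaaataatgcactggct

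The TET3 window held 45 CpG dinucleotides, 2 E-boxes and 3 GC boxes. The TET1 window held 10 CpG and none of these letters, and that of DNMT3B 3 CpG and 1 CCAAT box. As the DNMT3B window may lie inside the gene, its letters need not be those of the promoter in use. Over the 35116 RefSeq promoters of the same length, which hold several starts for some genes, the median was 14 CpG, and 7.26% held the E-box, 45.0% the GC box, 34.6% the CCAAT box and 11.5% the TATA box. Of the 86 members with an entry, each taken at its start farthest upstream, 12 held an E-box, 59 a GC box, 28 a CCAAT box and 1 a TATA box. ARID3A had no entry. These are letters in a window and say nothing of a factor at the gene.

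Among the CBX readers, CBX6 rose. It is of the Polycomb type, whose chromodomains bind the mark made by PRC2. CBX6 had 11403, 12858 and 12476 normalized reads in si-CTRL and 17666, 16871 and 16681 in si-SAM68. The lowest si-SAM68 library was far above the highest control. It rose 1.40-fold (log2 fold change 0.48, SE 0.0747, adjusted p = 0.00456). Per exon length CBX6 was more abundant than its relatives CBX2, CBX8 and CBX7, at 2000.3 against 509.8, 163.6 and 37.8 normalized reads per kb in si-CTRL. CBX2, CBX7 and CBX8 had log2 fold changes of 0.11, 0.18 and 0.07 and overlapping groups. Of the heterochromatin readers, CBX5 was at 5296 ± 547 and 5041 ± 201 (log2 fold change -0.07, 95% interval -0.26 to 0.13), and CBX1 and CBX3 had log2 fold changes of 0.02 and 0.19 with overlapping groups.

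No subunit of PRC2, whose mark the Polycomb CBX proteins read, passed the test. EZH2, the main methyltransferase of dividing cells, was at 5525 ± 263 and 5284 ± 235 normalized reads (SD, n = 3 each, log2 fold change -0.06, 95% interval -0.23 to 0.10, adjusted p = 0.627). SUZ12, the scaffold, was at 8408 ± 388 and 7826 ± 559 (log2 fold change -0.11, 95% interval -0.28 to 0.073). The alternative methyltransferase EZH1 was at 1304 ± 115 and 1520 ± 93 (log2 fold change 0.22, 95% interval 0.010 to 0.44, adjusted p = 0.167), with 1 control library above the lowest si-SAM68 library. EED, which binds the mark, was at 2091 ± 494 and 2537 ± 185 (log2 fold change 0.31, 95% interval -0.046 to 0.66), and the low control was si-CTRL replicate 1. Without that library EZH1 passed the test (log2 fold change 0.29, adjusted p = 0.0315), as did 15.1% of all loci, against 10.7% with all libraries. EZH1 did not pass when any other single library was left out (limma adjusted p 0.212 to 0.417).

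Among the 16 histone demethylases only KDM4D passed, and it fell. This gene encodes an enzyme of the KDM4 family, which removes methyl groups from histone H3 in heterochromatin. It had 263.7, 301.2 and 203.4 normalized reads in si-CTRL and 151.1, 135.2 and 164.2 in si-SAM68. The groups did not overlap, but the controls were widely spread. The fall was 1.68-fold (log2 fold change -0.75, SE 0.167, adjusted p = 0.0210), and the call was lost without si-CTRL replicate 2 or any 1 of the si-SAM68 libraries (adjusted p up to 0.0809). The longer family members KDM4A, KDM4B and KDM4C had log2 fold changes of -0.06, 0.05 and 0.12 with overlapping groups.

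The flavin-dependent demethylase KDM1A was at 11346 ± 88 and 13035.5 ± 176.1 normalized reads (log2 fold change 0.20, 95% interval 0.054 to 0.35), without overlap, but its adjusted p of 0.0818 missed the threshold. KDM6A, which removes the PRC2 mark, was likewise at 2248 ± 210 and 2713 ± 139 without overlap (log2 fold change 0.27, 95% interval 0.071 to 0.48, adjusted p = 0.0849). Both passed without si-CTRL replicate 1 (adjusted p = 0.0319 and 0.0096), a run in which 15.1% of all loci passed, against 10.7% with all libraries. Neither passed when any other single library was left out (limma adjusted p 0.158 to 0.228 for KDM1A and 0.115 to 0.271 for KDM6A). KDM6B, its relative induced by inflammation, had a log2 fold change of 0.13 (95% interval -0.13 to 0.39). KDM5A and KDM5B, which act on the mark of active promoters, had log2 fold changes of 0.25 (95% interval 0.041 to 0.46, adjusted p = 0.121) and 0.04 (95% interval -0.16 to 0.24).

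None of the 17 KMT and SETD genes passed, and their median log2 fold change was -0.02, between -0.32 (SETD5) and 0.31 (KMT2A). KMT2A, a methyltransferase of active promoters that is rearranged in leukaemia, was at 2656 ± 433 and 3309 ± 707 (SD, n = 3 each, 95% interval of the log2 fold change -0.039 to 0.66). KMT2D, which marks enhancers, was at 4259 ± 743 and 4175 ± 662 (log2 fold change -0.02, 95% interval -0.35 to 0.30). SETD2, the methyltransferase of transcribed gene bodies, was at 6081 ± 477 and 6563 ± 461 (log2 fold change 0.11, 95% interval -0.084 to 0.30).

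Of the 11 zinc-dependent deacetylases, HDAC9 passed. It is one of the deacetylases that bind MEF2 transcription factors. HDAC9 had 3193, 2436 and 2573 normalized reads in si-CTRL and 1908, 2233 and 2025 in si-SAM68. The highest si-SAM68 library was just below the lowest control, and si-CTRL replicate 1 was well above its group. The fall was 1.32-fold (log2 fold change -0.40, SE 0.113, adjusted p = 0.0478), close to the threshold, and it was lost with the replicate number as a block (adjusted p = 0.0792), without si-CTRL replicate 3 and without each si-SAM68 library (adjusted p up to 0.163). HDAC1 and HDAC2, the catalytic pair of the nuclear corepressor complexes, had log2 fold changes of 0.14 (95% interval -0.0099 to 0.30, adjusted p = 0.214) and -0.24 (95% interval -0.41 to -0.068, adjusted p = 0.0767). Neither overlapped between the groups, and HDAC2 passed without si-CTRL replicate 1 (adjusted p = 0.0168). It did not pass when any other single library was left out (limma adjusted p 0.102 to 0.254). None of the 7 sirtuins, which use NAD as cosubstrate, passed: SIRT1 was at 2523 ± 39 and 2710.4 ± 120.7 (log2 fold change 0.10, 95% interval -0.066 to 0.27).

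Among the remodellers only ARID3A fell, and it is a DNA-binding ARID protein rather than a SWI/SNF subunit. It had 918.6, 786.5 and 839.4 normalized reads in si-CTRL and 507.7, 461.8 and 473.6 in si-SAM68. The si-SAM68 libraries were tightly grouped and far below every control. The fall was 1.76-fold (log2 fold change -0.82, SE 0.101, adjusted p = 0.0015). Its paralog ARID3B was at 571.7 ± 51.2 and 578.8 ± 4.11 (log2 fold change 0.02, 95% interval -0.21 to 0.25). The SWI/SNF subunit ARID1A was at 1232 ± 160 and 1349.8 ± 67.8 (log2 fold change 0.14, 95% interval -0.10 to 0.38).

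The 13 tested SMARC genes held no called gene and had a median log2 fold change of 0.05, between -0.19 (SMARCA4) and 0.30 (SMARCA2). Of the alternative ATPases of SWI/SNF, SMARCA4 was at 13331 ± 1226 and 11676 ± 294, and SMARCA2 at 487.7 ± 42.1 and 599.6 ± 53.8 (SD, n = 3 each). Neither overlapped between the groups, and their adjusted p-values were 0.177 and 0.123. The 9 CHD remodellers had a median of 0.08. CHD4, the ATPase of the deacetylase complex NuRD, was at 33999 ± 1195 and 36024 ± 1286 (log2 fold change 0.08, 95% interval -0.075 to 0.24).

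Some members that missed the adjusted threshold still separated the groups, and 4 of these were picked out here after their values were seen. Such separation was common: it held for 33.9% of all tested loci and for 27.3% of members, called ones included. SETD5, a SET-domain protein, was at 10631 ± 1526 in si-CTRL and 8484 ± 380 in si-SAM68 (SD, n = 3 each, log2 fold change -0.32, adjusted p = 0.0767). ARID5A, a protein that also binds RNA, was at 214.9 ± 6.59 and 153.4 ± 28.7 (log2 fold change -0.50, adjusted p = 0.0691). SMARCC1, a core scaffold of SWI/SNF, was at 9707 ± 571 and 11323 ± 539 (log2 fold change 0.22, adjusted p = 0.0950). SIRT5, a mitochondrial sirtuin, was at 626.1 ± 29.5 and 758.9 ± 62.0 (log2 fold change 0.28, adjusted p = 0.110). The first 2 were lower and the last 2 higher in every si-SAM68 library than in any control.

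**Figure D4:**
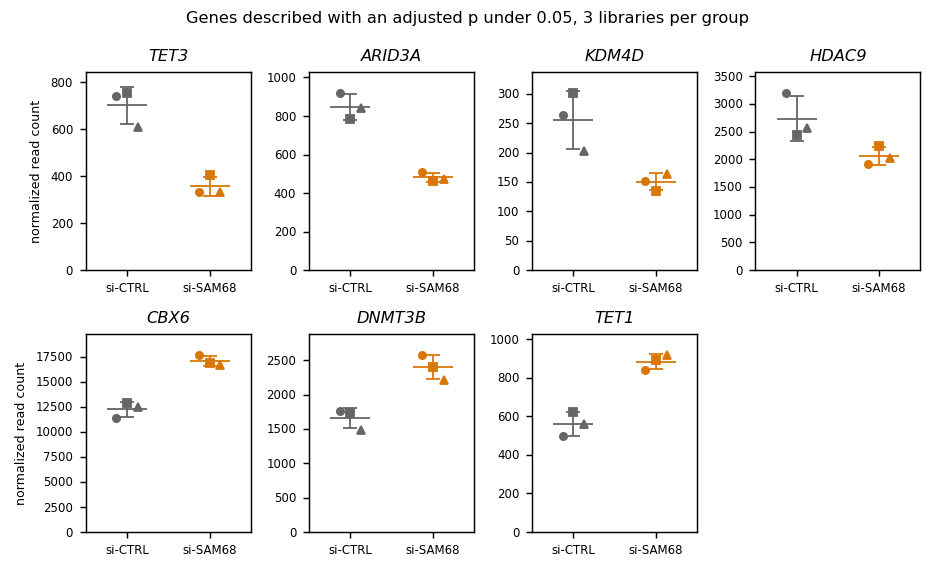
Normalized read count in each of the 3 si-CTRL (grey) and 3 si-SAM68 (orange) libraries for 7 members with an adjusted p under 0.05 (points, one shape per replicate number; bars are the mean ± SD, n = 3; every axis starts at 0). The groups do not overlap in any of the 7 panels, with a wide gap for TET3, ARID3A and CBX6 and a narrow one for HDAC9.

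The loci of these 7 genes in the deposited table, on hg19, were TET3 at chr2:74213531-74335300, TET1 at chr10:70320117-70454238 and DNMT3B at chr20:31350191-31397161. The others were CBX6 at chr22:39257432-39268339, KDM4D at chr11:94706842-94732678, ARID3A at chr19:926037-972807 and HDAC9 at chr7:18126565-19042035. Each value is the sum over such a whole locus, so that transcripts of 1 gene cannot be told apart.

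The balance between related genes was compared within libraries for 10 pairs of members, with a two-sided exact permutation test over the 6 libraries that cannot give a p below 0.1. The groups did not overlap for 7 pairs, each at that smallest p (0.143 after adjustment over the pairs), so none can pass. No share over pairs of other loci was computed. Of all single loci tested, 33.9% did not overlap. The differences below are therefore descriptions only. The log2 ratio of DNMT3A to DNMT3B was -3.48 ± 0.26 in si-CTRL and -4.43 ± 0.33 in si-SAM68 (SD, n = 3 each), a difference of -0.95. TET2 to TET3 went from 0.71 ± 0.15 to 1.45 ± 0.087, a difference of 0.75. SMARCA4 to SMARCA2 differed by -0.48, HDAC1 to HDAC2 by 0.38 and EZH2 to EZH1 by -0.29. The last 3 pairs hold no gene that passed by itself. KDM5A to KDM5B differed by 0.21 and CHD4 to CHD3 by 0.07. ARID1A to ARID1B (0.20), KDM6A to KDM6B (0.14) and CBX5 to CBX3 (-0.26) overlapped between the groups, with exact p-values of 0.2, 0.6 and 0.5.

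The proteins that work with these enzymes were followed in 9 lists of 130 partner genes, of which 124 were tested. Of these 2 rose and 10 fell, together 9.68%, against 10.7% of all loci. By direction, 4.47% of all loci were higher and 6.23% lower. Of the 124, 2 passed the thresholds of the published methods, against 7.67% of all loci. They were the methyltransferase SUV39H2 and the acetyltransferase KAT2B. SUV39H2, which writes the heterochromatin mark that KDM4D removes, had 1622, 1494 and 1580.0 normalized reads in si-CTRL and 934.9, 849.1 and 889.2 in si-SAM68. KAT2B had 1154, 986.0 and 1101 in si-CTRL and 620.6, 622.8 and 706.0 in si-SAM68. Neither gene had overlapping groups, and their log2 fold changes were -0.81 (SE 0.0859, adjusted p = 0.000802) and -0.73 (SE 0.102, adjusted p = 0.00269). The calls that follow were chosen for mention after their values were seen. MTF2 and PCGF5 of the Polycomb complexes rose (log2 fold change 0.39 and 0.33), and SCMH1 of the same list fell (-0.54). SS18L1 and BCL7B of SWI/SNF fell (-0.53 and -0.33), as did SAP130 and TBL1X of the corepressors (-0.45 and -0.39), the methyltransferase EHMT1 (-0.36) and UHRF1, which guides DNMT1 to replicated DNA (-0.35). With the replicate number as a block, PCGF5 and SAP130 were among those that no longer passed (adjusted p = 0.0683 and 0.0515). None of the 12 COMPASS, 3 BET and 15 INO80, SRCAP and ISWI partners tested passed.

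The 3′UTRs of the members were searched for the 7 bases matching each siRNA's seed, using the longest 3′UTR in GENCODE. At least 1 match was present in 29 of 90 members (32.2%) and in 29.6% of the 12026 tested genes with a 3′UTR. Among the called members, TET3 held 3 matches, all to siSAM68_2, TET1 held 2, CBX6 and HDAC9 1 each, and ARID3A, KDM4D and DNMT3B none. The TET3 matches lie at bases 1004 to 1010, 2767 to 2773 and 5721 to 5727 of its 3′UTR of 6003 bases, shown here because TET3 fell the most, with the match in capitals.
first TET3 match: caaagtctaTGCTGATactgaaaaa
second TET3 match: tcaagcccaTGCTGATttgtacact
last TET3 match: gtaaatttaTGCTGATaattttatt

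HDAC8 also held 3 matches to siSAM68_2 and had a log2 fold change of 0.04, and KDM5B, KDM7A and SMARCC1, each with 2, had 0.04, -0.17 and 0.22. Over all members with a match the median log2 fold change was 0.02, and without one 0.06. The longest run shared by any siRNA of 19 bases and a TET3 transcript was 10 bases. The part of such matches in the fall of TET3 was not tested.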

How the data were processed

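RNA of 3 si-CTRL and 3 si-SAM68 libraries had been sequenced after poly(A) selection. The submitters' processing notes name STAR 2.4.0, SAMtools, Picard, FastQC, DESeq2 and hg19; the counting program and its use of strand are not given in the sources used here. The authors deposited a signal: reads per FAST DB locus divided by each library's DESeq2 size factor. Dividing by the smallest step returned whole numbers for 100% of values (tolerance 0.01), taken as reads for alternatives.

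Log2(value + 1) of loci with a mean of at least 10 was tested with limma 3.58.1 (R 4.3.3, eBayes with trend), without covariates, and p-values were adjusted over all 18849 loci (Benjamini-Hochberg). The scripts were tested on simulated data. Alternatives were other pseudocounts, filters and scalings, edgeR 4.0.16 and DESeq2 1.42.0 on recovered reads, a replicate block and leaving out single libraries. Same-numbered libraries deviated together over all loci (correlations 0.105, 0.231 and 0.125). This was less clear over the members (-0.011, 0.141 and 0.216), where 1 differently numbered pair reached 0.120. The numbers were taken as pairs only in the replicate block. The main fit and the permutation test were unpaired. Exon lengths came from GENCODE.

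Members, lists and pairs were chosen with earlier results of these data known. Named are KHDRBS1, every called member, members of wide interest whatever their values, untested members, and partners past both published thresholds. Others were chosen after their values were seen. Some genes that the rule names are counted but not reported here.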

Additional observations from a re-analysis of the deposited data

How the results depend on the processing

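The 3 genes that rose (TET1, DNMT3B and CBX6), TET3 and ARID3A passed the adjusted test in every alternative run, and none of the 8 called genes changed direction in any. The number of members lower was 5, and 3 with no filter on low values (HDAC9 among those lost), when 1 more member, SMARCA5-AS1, named after its values were seen, met the published thresholds. With a replicate block the counts were 3 higher, 4 lower and 4 past the published thresholds, HDAC9 being the member lost (adjusted p = 0.0792), and the block changed no other call of a member. Leaving out single libraries gave 2 to 6 members lower, 3 to 9 higher and 3 to 6 past the published thresholds, while the median log2 fold change stayed between 0.02 and 0.07. The lower count was 3 when si-CTRL replicate 3 or si-SAM68 replicate 1 was left out, and 2 for si-SAM68 replicates 2 and 3. The 3 without si-SAM68 replicate 1 include ARID5A (limma adjusted p = 0.0435), so that 2 of the 5 remained. Without si-CTRL replicate 1 the lower count was 6. There CHD6, EZH1, SMARCA2, SMARCC1, KDM1A and KDM6A joined the genes higher, named after their values were seen. Over all loci the number called ranged from 625 (without si-SAM68 replicate 3) to 2839 (without si-CTRL replicate 1), against 2017. edgeR called 3 higher and 5 lower, and DESeq2 4 and 7 (adding KDM1A, SETD5 and HDAC2). Quantile normalization gave 4 and 5, adding the locus named KDM5D (limma adjusted p = 0.0488, and 0.0735 in the main fit). Some reads of KDM5D and KDM5C may be shared, as the counting program is not given. Expression of KDM5D itself is therefore not shown. At a fold change of at least 2, 0 members passed. Where a count moved, the cause was not tested. The median SE of a member's log2 fold change was 0.10, near the median absolute change of 0.13, which limits what 3 libraries a group can show.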
